A study of Mus musculus with 16 samples.

Results

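Skeletal muscle transcripts were followed through 16 arrays of mouse white fat: 40 genes of the contractile machinery, calcium handling and energy supply of muscle, out of the 18193 genes that the arrays name. They were listed by symbol. The values behind the list were known when it was drawn up: it was chosen on these data, because Tnnt3 varied strongly between arrays of 1 group. Each gene is represented by the probe set that carries only its symbol and has the highest mean over the 16 arrays. Of the 40 members, 39 had such a probe set and Xirp2 had none. To be tested, a gene had to reach 4 on the log2 scale in 4 or more arrays, and 31 of the 40 members met it. Myl2 met it in exactly 4 arrays, and Myl3 and Myoz1, with 3 arrays each, lay just outside.

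The 4 groups crossed genotype with diet, with 4 arrays in each. Wild-type mice had no Cre transgene, and knockout mice carried FABP4-Cre, a recombinase under a fat-cell promoter, together with a Sirt1 gene that it deletes. Sirt1 encodes a protein deacetylase that uses NAD. All mice were of the C57BL6/J strain, were put on a low or a high fat diet at 4 weeks of age for 8 weeks, and gave their fat at 12 weeks. The sources used here do not give the depot, and no group had the transgene with an intact Sirt1 gene. The labels do not say that the 4 arrays of a group came from separate mice, so that p-values measure only the spread between these samples, which may be technical. Values are log2 expression per probe set, whose background differs between probe sets, so that each gene is compared with itself across arrays.

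Skeletal muscle contracts when thin filaments of actin slide along thick filaments of myosin. Calcium released from the sarcoplasmic reticulum binds troponin on the thin filament and lets myosin attach, and a calcium pump ends the contraction. Fast and slow muscle fibres build this machinery from different genes, so that troponin T, for example, comes from Tnnt3 in fast fibres and from Tnnt1 in slow ones. Of the members, 14 belong to fast fibres, 9 to slow fibres, and the others were put on neither list. Fat cells are not known to build sarcomeres.

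By most of the broad measures below, which can miss genes that set single arrays apart, the arrays were alike. Medians over all probe sets, which the processing may have made equal, lay between 4.34 and 4.46. Arrays of 1 group correlated with r from 0.987 to 0.996. The mean of 10 white adipocyte markers stayed between 12.0 and 12.7 on every array. Array weights, by which limma counts more variable arrays for less, ran from 0.374 to 3.41, so that by this measure the arrays differed. The Sirt1 probe set did not separate the genotypes: knockout minus wild type came to -0.19 under the low fat diet (limma adjusted p = 0.498) and -0.22 under the high fat diet (0.448). The sources used here do not say whether that probe set lies in the deleted stretch. Several arrays stood apart from others of their group in muscle transcripts, as the values of Tnnt3 show, and results that rest on them are given with and without them.

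Promoter sequence is shown for 4 members, because 2 of them followed Tnnt3 closely, 1 is a slow-fibre gene that did not, and 1 took its own course in a single group. The windows are the 250 bases before the transcription start in RefSeq (build GRCm38.p6), written 5′ to 3′ on the strand of the gene. Capitals mark CAGCTG, the form of the E-box that muscle regulatory factors of the MyoD family are known to bind, the CArG box, which serum response factor binds, and TATAAA. Mylpf lies at chr7:127211358-127211607 on the plus strand, Myh4 at chr11:67237562-67237811 on the plus strand, Tnnc1 at chr14:31208062-31208311 on the plus strand and Pvalb at chr15:78206401-78206650 on the minus strand, the first of 2 Pvalb windows in the table.
Mylpf: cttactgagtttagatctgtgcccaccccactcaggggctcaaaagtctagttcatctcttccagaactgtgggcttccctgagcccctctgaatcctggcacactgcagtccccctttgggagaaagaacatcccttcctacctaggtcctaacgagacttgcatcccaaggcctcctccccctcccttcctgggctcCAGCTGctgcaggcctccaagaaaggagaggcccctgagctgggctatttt
Myh4: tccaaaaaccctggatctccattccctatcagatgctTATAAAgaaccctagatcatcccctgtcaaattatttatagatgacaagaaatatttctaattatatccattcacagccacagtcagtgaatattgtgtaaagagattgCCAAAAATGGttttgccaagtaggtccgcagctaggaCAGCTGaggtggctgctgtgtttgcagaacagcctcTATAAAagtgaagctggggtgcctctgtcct
Tnnc1: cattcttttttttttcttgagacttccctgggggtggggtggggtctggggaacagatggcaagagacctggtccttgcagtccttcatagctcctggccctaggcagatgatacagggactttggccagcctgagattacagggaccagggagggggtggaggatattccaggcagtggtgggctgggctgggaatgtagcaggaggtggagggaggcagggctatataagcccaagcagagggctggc
Pvalb: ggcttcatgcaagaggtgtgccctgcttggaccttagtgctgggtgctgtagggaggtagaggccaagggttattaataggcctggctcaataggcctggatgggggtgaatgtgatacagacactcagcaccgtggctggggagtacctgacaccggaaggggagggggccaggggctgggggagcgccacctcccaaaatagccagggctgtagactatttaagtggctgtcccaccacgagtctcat
In Mylpf, a myosin light chain of fast fibres, CAGCTG began 51 bases before the start. In Myh4, the fast IIb myosin heavy chain, CAGCTG began 67 bases and a CArG box 104 bases before the start, and TATAAA began at 31 and 213 bases. The Tnnc1 and Pvalb windows held none of these letters, nor the MEF2 consensus.

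The table held windows for 32 members, 39 windows in all. CAGCTG was in 17 of the 39 windows (43.6%), belonging to 15 members, against 13.0% of all 32851 windows of that length. The wider E-box CANNTG, which includes CAGCTG, was in 84.6% against 66.2%. The MEF2 consensus was in 3 windows (7.69% against 0.508%) and a CArG box in 5 (12.8% against 1.47%). TATAAA, searched on the strand of the gene, was in 4 (10.3% against 7.59%), and the other motifs read the same on both strands. These are matches of letters in a window, and no binding was measured.

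Within the thin filament, Tnnt3 ties troponin to tropomyosin in fast fibres. In the order of replicates 1 to 4, used throughout, its log2 values were 4.86, 4.49, 10.52 and 9.48 for wild type and 7.37, 10.19, 4.86 and 3.73 for knockout under the low fat diet, then 6.65, 3.40, 8.86 and 7.95 for wild type and 5.88, 5.95, 3.62 and 8.20 for knockout under the high fat diet. Every group held arrays with high and with low values, and the ranges of all 4 groups overlapped. The highest array stood at 10.52, and 3 arrays were under 4, where values carry little information. The SD within groups was 2.60, the largest of the 12078 genes tested, whose median was 0.237. Tnnt3 was chosen for its spread between arrays of 1 group, so that this rank restates the choice. In bulk tissue, fewer cells of a type and less RNA per cell cannot be told apart.

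Tnni2, the inhibitory troponin subunit of fast fibres, gave 5.02, 4.87, 10.32 and 9.49 for wild type and 6.97, 10.05, 4.73 and 4.71 for knockout under the low fat diet, then 6.56, 4.62, 8.81 and 8.16 for wild type and 6.06, 6.10, 4.55 and 8.12 for knockout under the high fat diet. The same arrays were high and low as for Tnnt3 (r = 0.99, rho = 0.99 over 16 arrays), although its lowest arrays levelled off at 4.55. Tnnc2, the fast calcium-binding subunit, gave 5.65, 5.05, 10.57 and 9.60 for wild type and 7.33, 10.23, 5.37 and 4.47 for knockout under the low fat diet, then 6.68, 4.36, 9.09 and 8.30 for wild type and 6.23, 5.91, 3.76 and 8.02 for knockout under the high fat diet. Among the genes tested it was closest to Tnnt3, with r = 0.993, and 0.990 without the 2 arrays farthest from the median of Tnnt3. All 3 subunits of fast troponin were therefore high on the same arrays.

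Slow troponin subunits moved less and were all highest on 1 array, knockout low fat replicate 2. Tnnt1, the slow form of Tnnt3, gave 3.53, 3.48, 4.40 and 4.61 for wild type and 3.96, 5.93, 3.45 and 3.28 for knockout under the low fat diet, then 4.13, 3.89, 4.93 and 4.13 for wild type and 4.35, 4.33, 3.98 and 4.57 for knockout under the high fat diet. That array was 1.53 above wild-type low fat replicate 3, which had the higher Tnnt3. Tnnc1, the calcium-binding subunit of slow and cardiac fibres, gave 4.96, 4.00, 5.21 and 5.74 for wild type and 5.36, 7.77, 4.89 and 5.30 for knockout under the low fat diet, then 4.67, 4.97, 5.54 and 4.94 for wild type and 5.84, 5.14, 4.99 and 5.14 for knockout under the high fat diet. Knockout low fat replicate 2 stood alone at 7.77, while the other 15 arrays lay between 4.00 and 5.84. Tnni1, the slow inhibitory subunit, reached 4 on that array only, at 4.25, and had a median of 2.96. The rank order over all arrays was partly that of Tnnt3, with rho of 0.81 for Tnnt1, 0.71 for Tnni1 and 0.49 for Tnnc1.

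Acta1, skeletal muscle actin, gave 9.22, 10.17, 11.51 and 12.35 for wild type and 10.48, 11.46, 10.50 and 11.11 for knockout under the low fat diet, then 11.23, 11.63, 11.64 and 11.76 for wild type and 10.96, 10.44, 10.87 and 11.19 for knockout under the high fat diet. It was at 9.22 or more on every array, its range was 3.13, and r was 0.52. Acta2, the smooth muscle actin with a very similar coding sequence, had 12.0 to 13.4 on the same arrays, and how far its RNA adds to the Acta1 signal was not tested. Neb, the giant protein that lines the thin filament, gave 4.28, 4.83, 6.05 and 6.14 for wild type and 4.84, 5.42, 4.08 and 4.25 for knockout under the low fat diet, then 4.18, 3.45, 4.37 and 4.04 for wild type and 4.21, 3.89, 3.42 and 4.01 for knockout under the high fat diet. Its highest values were those of wild-type low fat replicates 3 and 4, with knockout low fat replicate 2 next (r = 0.73).

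**Figure D1:**
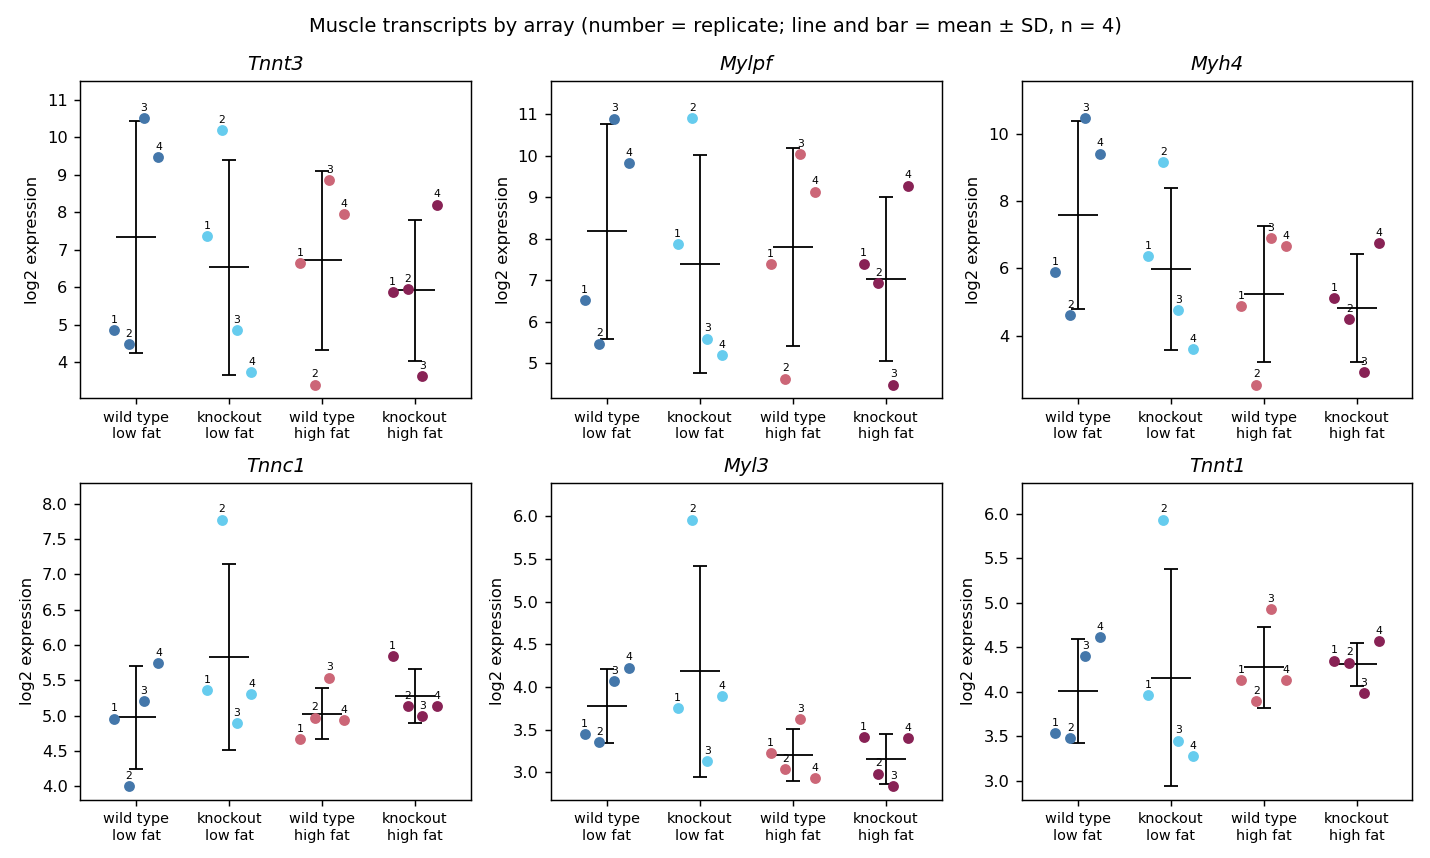
Log2 expression of Tnnt3, Mylpf and Myh4 (fast) and Tnnc1, Myl3 and Tnnt1 (slow) on each array, numbered by replicate, with group mean ± SD (n = 4). Each group has high and low arrays for the fast genes, whereas Tnnc1 and Myl3 are highest in knockout low fat replicate 2, at 7.77 and 5.96.

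In the thick filament, most fast members repeated the course of Tnnt3. Myh4, the heavy chain of the fastest fibres (IIb), gave 5.88, 4.61, 10.46 and 9.40 for wild type and 6.37, 9.16, 4.76 and 3.61 for knockout under the low fat diet, then 4.88, 2.55, 6.91 and 6.66 for wild type and 5.13, 4.49, 2.92 and 6.76 for knockout under the high fat diet. Wild-type low fat replicates 3 and 4 led with 10.46 and 9.40, and 3 arrays were under 4. Myh1, the IIx heavy chain, gave 4.57, 3.76, 8.38 and 8.13 for wild type and 7.64, 9.56, 3.91 and 3.01 for knockout under the low fat diet, then 3.44, 2.75, 7.45 and 6.36 for wild type and 4.52, 4.35, 2.17 and 6.42 for knockout under the high fat diet. Here knockout low fat replicate 2 led at 9.56. Myh2, the IIa heavy chain, gave 3.14, 2.82, 5.80 and 6.45 for wild type and 5.61, 6.58, 2.56 and 2.05 for knockout under the low fat diet, then 3.82, 2.03, 6.63 and 6.13 for wild type and 3.64, 3.75, 2.30 and 5.54 for knockout under the high fat diet. Its highest array was wild-type high fat replicate 3, with 6.63, beside knockout low fat replicate 2 with 6.58. All these heavy chains had r with Tnnt3 between 0.941 and 0.953, and each was led by a different array. The heavy chain genes are near copies of each other, so that their probe sets may share signal.

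Mylpf, the phosphorylatable light chain of fast fibres, gave 6.52, 5.47, 10.89 and 9.83 for wild type and 7.86, 10.91, 5.59 and 5.19 for knockout under the low fat diet, then 7.40, 4.63, 10.03 and 9.13 for wild type and 7.40, 6.94, 4.48 and 9.28 for knockout under the high fat diet. The order was close to that of Tnnt3 (rho = 0.98), although knockout low fat replicate 2 came first at 10.91, just above wild-type low fat replicate 3 at 10.89. No array was under 4, and the span was 86.2-fold. Mybpc2, the fast myosin-binding protein C, gave 3.86, 4.01, 7.71 and 6.89 for wild type and 4.50, 6.98, 3.67 and 3.52 for knockout under the low fat diet, then 4.35, 2.89, 6.08 and 5.07 for wild type and 3.60, 3.28, 3.08 and 4.87 for knockout under the high fat diet. It was highest in wild-type low fat replicate 3 and had r = 0.94. Myl1, the alkali light chain of fast fibres, gave 9.37, 9.49, 10.23 and 10.17 for wild type and 10.11, 10.67, 9.86 and 10.81 for knockout under the low fat diet, then 9.88, 9.63, 10.28 and 9.88 for wild type and 9.24, 9.70, 9.30 and 9.82 for knockout under the high fat diet. Its highest value, 10.81, came from knockout low fat replicate 4, where Tnnt3 was at 3.73. With that array included r was 0.50, and 0.64 for deviations from the group means.

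Slow members of the thick filament were led by knockout low fat replicate 2 without exception. Myl2, the slow and cardiac regulatory light chain, gave 2.97, 2.85, 5.12 and 4.75 for wild type and 3.85, 6.69, 3.21 and 3.28 for knockout under the low fat diet, then 3.20, 3.56, 5.00 and 3.72 for wild type and 3.78, 3.54, 2.85 and 3.65 for knockout under the high fat diet. Next after that array came wild-type low fat replicate 3 and wild-type high fat replicate 3, at 5.12 and 5.00. Myl3, the slow alkali light chain, gave 3.45, 3.36, 4.07 and 4.23 for wild type and 3.75, 5.96, 3.13 and 3.89 for knockout under the low fat diet, then 3.22, 3.04, 3.63 and 2.94 for wild type and 3.41, 2.99, 2.84 and 3.40 for knockout under the high fat diet. Only 3 arrays reached 4, and the value next to knockout low fat replicate 2 was that of wild-type low fat replicate 4, at 4.23. Mybpc1, the slow myosin-binding protein C, gave 4.22, 3.51, 5.60 and 5.77 for wild type and 4.37, 6.55, 3.29 and 3.31 for knockout under the low fat diet, then 3.81, 3.11, 5.03 and 4.62 for wild type and 3.69, 3.35, 3.15 and 4.62 for knockout under the high fat diet. Of the slow members it followed Tnnt3 most closely, with r = 0.93. Myh7, the slow heavy chain, ran from 2.99 to 4.47 with its peak on the same array. Myh8, the perinatal heavy chain, stayed between 2.52 and 2.88 and never reached 4.

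The Z-disc anchors thin filaments and ties neighbouring sarcomeres together. Actn3, the alpha-actinin of fast fibres, gave 4.16, 4.15, 7.41 and 6.36 for wild type and 4.57, 6.79, 4.12 and 3.95 for knockout under the low fat diet, then 4.40, 3.37, 5.15 and 5.02 for wild type and 4.52, 4.24, 3.91 and 5.14 for knockout under the high fat diet. Its rank order over the arrays was nearly that of Tnnt3 (rho = 0.99, r = 0.92). Tcap, which caps titin at the Z-disc, gave 3.25, 3.27, 6.03 and 5.66 for wild type and 4.54, 6.44, 2.98 and 2.80 for knockout under the low fat diet, then 3.53, 2.78, 4.57 and 4.41 for wild type and 3.61, 3.43, 2.42 and 4.47 for knockout under the high fat diet. Knockout low fat replicate 2 was highest and r was 0.96. Ttn, the spring that spans the sarcomere, gave 3.66, 3.46, 6.62 and 5.91 for wild type and 4.22, 5.15, 3.12 and 3.08 for knockout under the low fat diet, then 3.39, 2.78, 4.14 and 3.70 for wild type and 3.21, 3.38, 2.84 and 3.84 for knockout under the high fat diet. It was highest in wild-type low fat replicates 3 and 4, and r was 0.86.

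Myot, a protein that cross-links actin at the Z-disc, ran from 1.67 to 6.39 with r = 0.96. Myoz1, the calsarcin of fast fibres, gave 2.49, 2.34, 4.99 and 4.53 for wild type and 3.00, 5.45, 2.63 and 2.36 for knockout under the low fat diet, then 2.74, 2.25, 3.67 and 3.41 for wild type and 3.45, 2.90, 2.54 and 3.63 for knockout under the high fat diet. Myoz2, its slow form, gave 2.99, 2.69, 3.49 and 4.03 for wild type and 3.08, 4.84, 2.59 and 2.35 for knockout under the low fat diet, then 2.51, 2.53, 3.89 and 3.54 for wild type and 2.72, 2.77, 2.28 and 3.41 for knockout under the high fat diet. Both peaked in knockout low fat replicate 2, and wild-type low fat replicate 3 came next for Myoz1 but lay under 4 arrays for Myoz2. Actn2, the alpha-actinin of all fibres, exceeded 4 on that array alone, at 4.41, with r = 0.88. Ldb3, a PDZ protein of the Z-disc, behaved otherwise: it ran from 7.40 to 9.64, was highest in wild-type low fat replicate 1, and had r = 0.14. The other Ldb3 probe sets had r of 0.59 and -0.15.

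Calcium handling was the role whose members followed Tnnt3 least, with a median r of 0.39 over 6 genes, against 0.90 over 8 genes of the Z-disc and scaffold and 0.93 over 11 of the thick filament. For deviations from the group means these medians were 0.68, 0.94 and 0.94. Atp2a1, the calcium pump of fast fibres, followed Tnnt3 most closely of the 6. It gave 4.86, 4.42, 9.73 and 9.13 for wild type and 6.25, 9.27, 4.68 and 3.75 for knockout under the low fat diet, then 5.31, 3.63, 6.94 and 6.77 for wild type and 5.05, 4.95, 3.37 and 6.57 for knockout under the high fat diet. The same arrays led as for Tnnt3 (r = 0.97, rho = 0.99).

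Pvalb, a soluble calcium buffer that speeds the relaxation of fast fibres, gave 5.21, 3.69, 8.92 and 7.84 for wild type and 6.17, 8.99, 4.57 and 3.96 for knockout under the low fat diet, then 6.27, 6.89, 8.05 and 7.31 for wild type and 9.33, 9.59, 9.52 and 9.88 for knockout under the high fat diet. In both low fat groups the order of the arrays was that of Tnnt3. In wild type on the high fat diet replicate 2 broke that order, with Pvalb at 6.89 and Tnnt3 at 3.40. The 4 knockout arrays on the high fat diet lay together above all others, although Tnnt3 there ran from 3.62 to 8.20. Over all arrays r was 0.48, and 0.85 for deviations from the group means. Trdn, or triadin, which links the calcium release channel to calsequestrin, gave 7.19, 8.18, 7.00 and 7.43 for wild type and 8.41, 8.82, 7.57 and 6.87 for knockout under the low fat diet, then 8.02, 7.04, 8.34 and 7.70 for wild type and 9.47, 9.44, 9.64 and 9.76 for knockout under the high fat diet. Again the knockout high fat arrays lay above all others, and r with Tnnt3 was 0.06. The other 5 Trdn probe sets also had r between -0.13 and 0.10. The sources used here do not say where in the gene a probe set lies, so that for Trdn, Ryr1 and Ldb3, which have several, the brightest may lie outside the coding exons.

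Ryr1, the calcium release channel of skeletal muscle, gave 5.57, 5.47, 7.91 and 7.39 for wild type and 7.63, 7.83, 7.61 and 6.63 for knockout under the low fat diet, then 7.26, 8.38, 7.88 and 8.23 for wild type and 7.96, 7.77, 7.87 and 8.00 for knockout under the high fat diet. Only wild-type low fat replicates 1 and 2 were under 6. Its second, dimmer probe set ran from 1.72 to 4.31 and had r = 0.82 where the brighter one had 0.35. Casq1, the calcium store protein of fast fibres, gave 3.33, 3.76, 4.20 and 4.33 for wild type and 5.65, 5.65, 4.92 and 3.92 for knockout under the low fat diet, then 4.66, 4.82, 5.64 and 4.99 for wild type and 4.93, 5.31, 4.02 and 4.70 for knockout under the high fat diet. Wild-type low fat replicates 1 and 2 were the lowest arrays, at 3.33 and 3.76. Casq2, the slow and cardiac form, gave 2.90, 3.33, 3.28 and 3.32 for wild type and 4.94, 4.49, 4.30 and 3.66 for knockout under the low fat diet, then 4.08, 3.43, 3.93 and 5.49 for wild type and 4.01, 3.74, 3.68 and 4.02 for knockout under the high fat diet. Its highest value was in wild-type high fat replicate 4, and 9 of the 16 arrays were under 4.

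**Figure D2:**
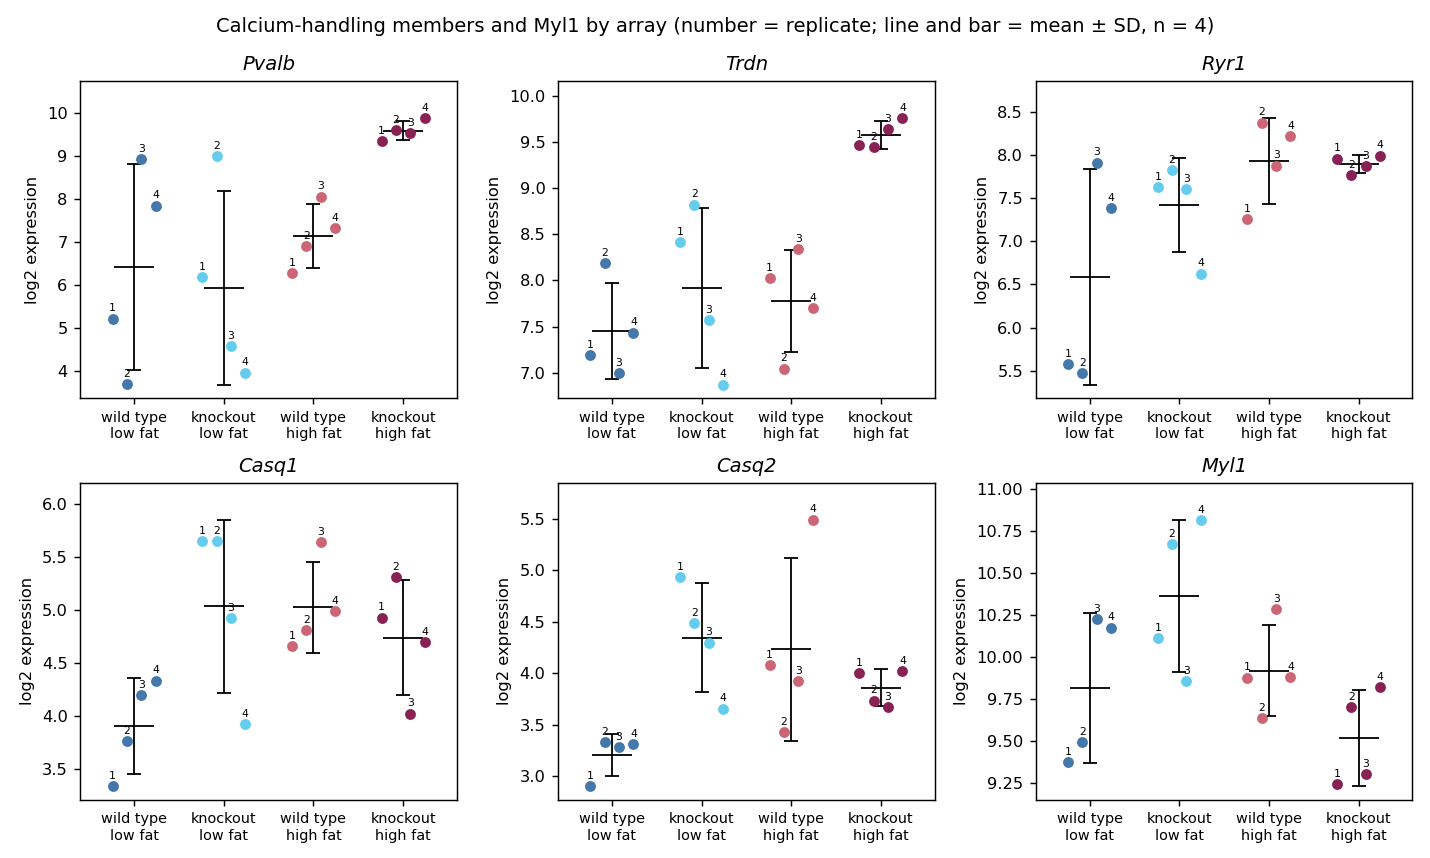
Log2 expression of Pvalb, Trdn, Ryr1, Casq1, Casq2 and Myl1 on each array, numbered by replicate, with group mean ± SD (n = 4). For Pvalb and Trdn the 4 knockout high fat arrays, at 9.33 to 9.88 and 9.44 to 9.76, lie above all 12 others.

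Energy metabolism followed Tnnt3 with a median r of 0.86 over 6 genes. Ckm, the creatine kinase of muscle that restores ATP, gave 3.33, 2.90, 5.37 and 4.21 for wild type and 3.42, 5.61, 2.71 and 3.01 for knockout under the low fat diet, then 3.21, 2.53, 4.09 and 4.57 for wild type and 3.31, 3.04, 2.50 and 3.93 for knockout under the high fat diet. Knockout low fat replicate 2 and wild-type low fat replicate 3 were highest, with r = 0.92. Mb, myoglobin, which stores oxygen and is abundant in oxidative fibres, gave 4.22, 3.61, 5.22 and 5.73 for wild type and 4.75, 6.95, 3.65 and 3.84 for knockout under the low fat diet, then 4.26, 3.33, 6.10 and 5.20 for wild type and 4.57, 4.11, 2.64 and 5.51 for knockout under the high fat diet. Its peak in knockout low fat replicate 2 was 1.73 above wild-type low fat replicate 3. Pgam2, the phosphoglycerate mutase of muscle, gave 3.66, 3.83, 4.90 and 4.43 for wild type and 4.10, 7.09, 3.59 and 3.21 for knockout under the low fat diet, then 4.36, 3.18, 5.98 and 5.12 for wild type and 4.10, 3.98, 3.13 and 4.96 for knockout under the high fat diet. It too peaked in knockout low fat replicate 2, at 7.09 against 5.98 in wild-type high fat replicate 3 and 4.90 in wild-type low fat replicate 3.

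Pygm, the enzyme that breaks down muscle glycogen, ran from 3.65 to 5.98 with r = 0.87 and its highest value in wild-type low fat replicate 3. Ckmt2, the mitochondrial creatine kinase, exceeded 4 on knockout low fat replicate 2 alone, at 4.85. Eno3, the muscle enolase, gave 8.73, 7.99, 8.94 and 8.80 for wild type and 7.65, 8.84, 7.81 and 7.77 for knockout under the low fat diet, then 7.21, 6.98, 8.33 and 8.32 for wild type and 7.24, 7.40, 7.09 and 7.47 for knockout under the high fat diet. It stayed at 6.98 or more on every array and had r = 0.65.

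**Figure D3:**
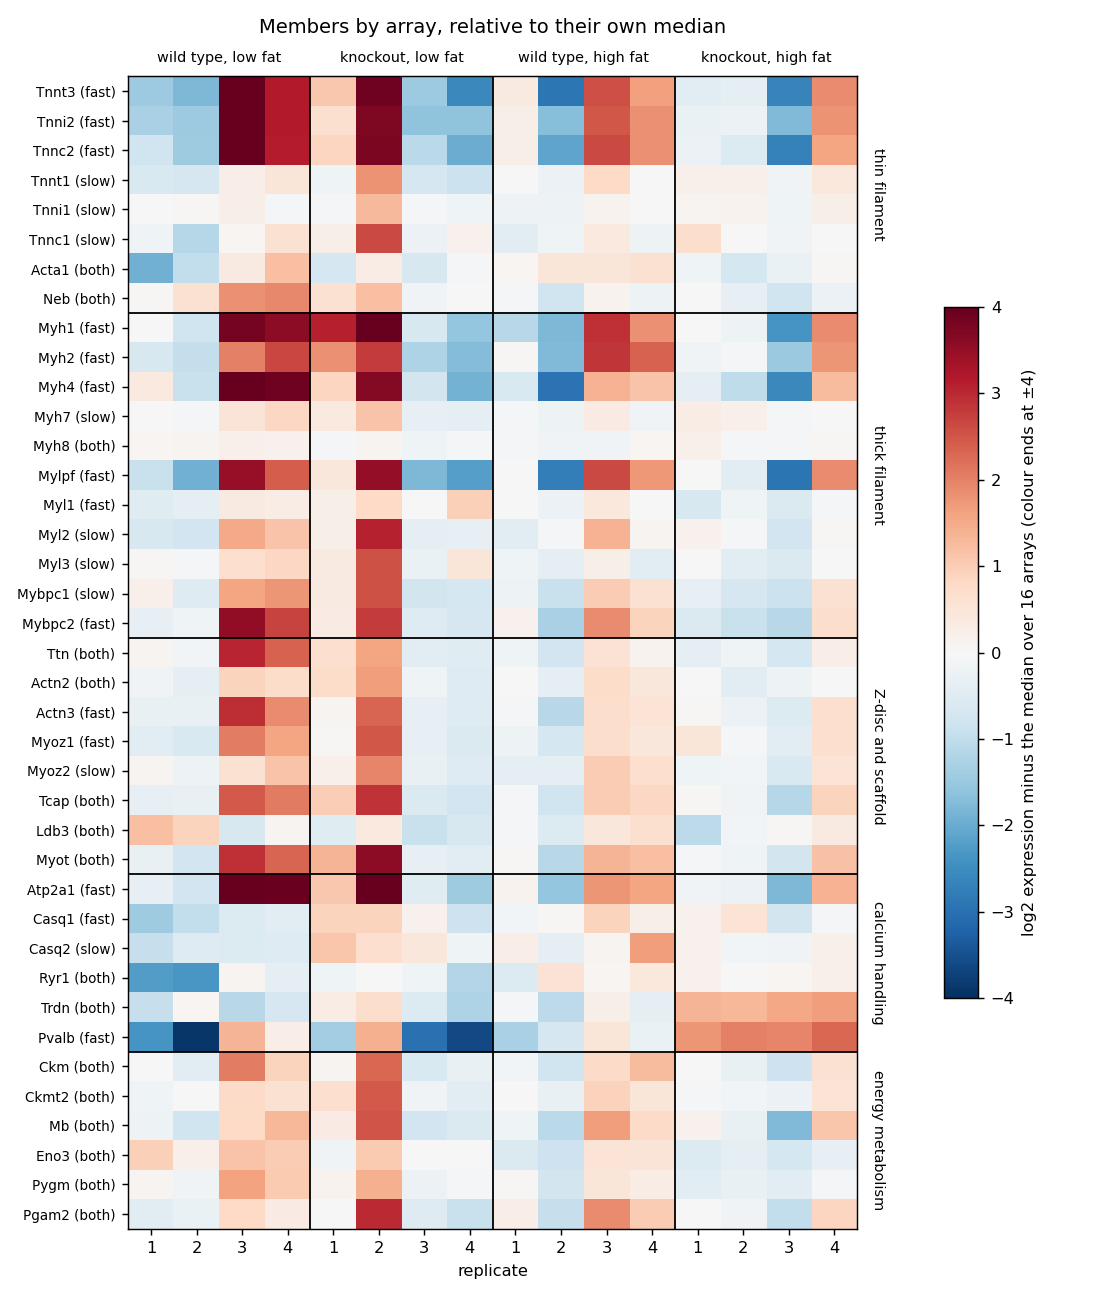
Log2 expression of the 39 measured members on 16 arrays, relative to the median of each gene, with colours ending at 4 above or below. Wild-type low fat replicates 3 and 4 and knockout low fat replicate 2 carry most of the high values. Trdn, Pvalb, Ldb3, Ryr1, Casq2, Myl1, Myh2 and Myh8 are highest on other arrays.

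The covariation with Tnnt3 is a description, since Tnnt3 was the marker by which the list was drawn up, and all points share 16 arrays. Over the 38 other members the median r was 0.85. It was 0.89 for deviations from the group means and 0.83 without the 2 arrays farthest from the median of Tnnt3, and leaving out any 1 array gave 0.841 to 0.859. An r of 0.8 or more was reached by 22 of these members, and 8 were under 0.5. Over all 12077 other genes tested the median r was -0.02, and 27 (0.224%) reached 0.8. These 27 include 18 members, since the other members at 0.8 or more were measured but not tested. Among the 12047 genes tested that are no members, 9 (0.0747%) reached 0.8.

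By fibre type, the 13 fast members other than Tnnt3 had a median r of 0.94 (0.43 to 0.99), the 9 slow members 0.77 (0.27 to 0.93), and the 16 on neither list 0.84 (0.06 to 0.96). Of the fast members, 3 were under 0.5 (Casq1, Pvalb and Myl1), and of the slow members 1 (Casq2). For deviations from the group means 0 fast members were under 0.5. Slow members also had smaller ranges over the arrays, with a median of 2.66 against 5.77 for fast ones, and many of their values lay under 4. The part of range and background in the lower r of the slow members was not tested.

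**Figure D4:**
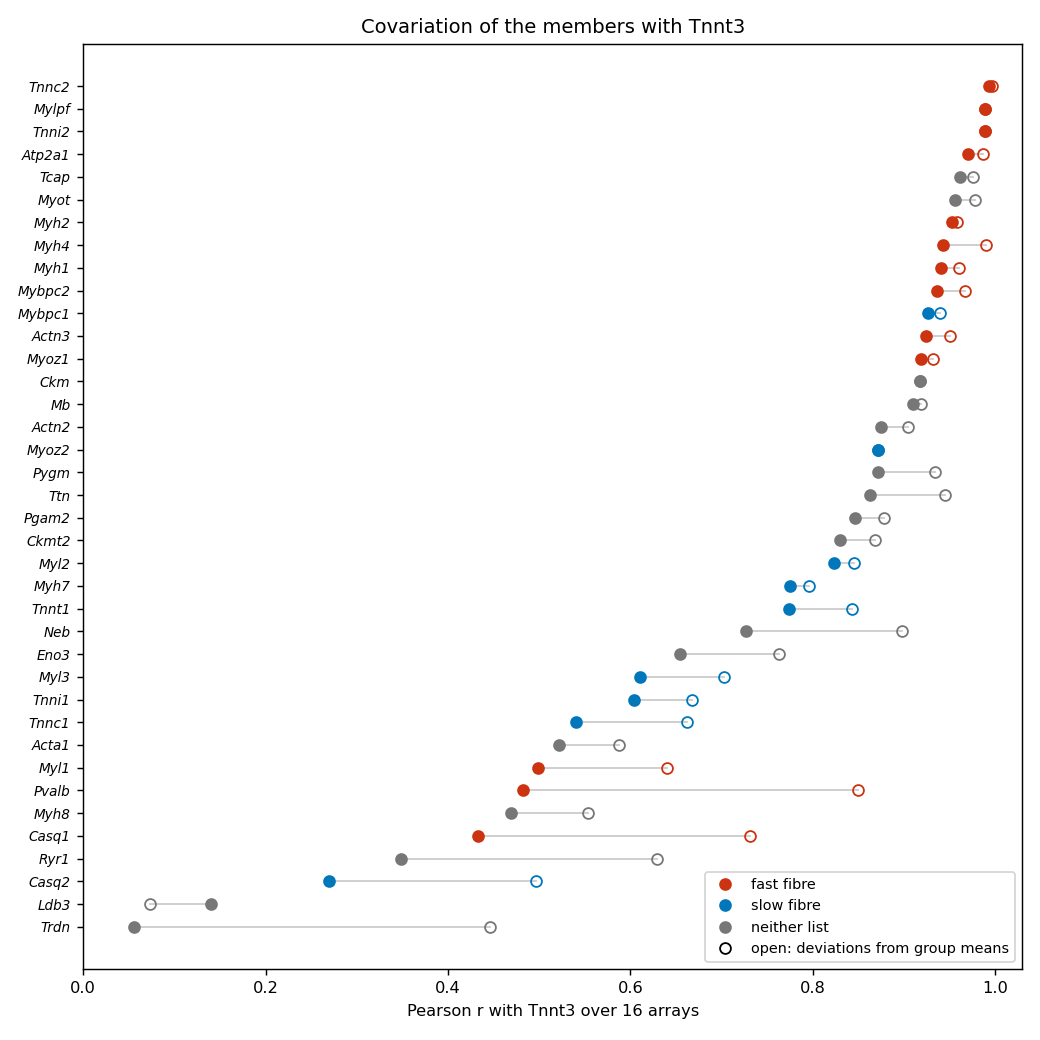
Pearson r of each member with Tnnt3 over 16 arrays (filled) and for deviations from the group means (open), coloured by fibre type. Fast members gather near the top, from Tnnc2 at 0.99, while Trdn, Ldb3, Casq2, Ryr1 and Casq1 have filled points at 0.43 or less.

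**Figure D5:**
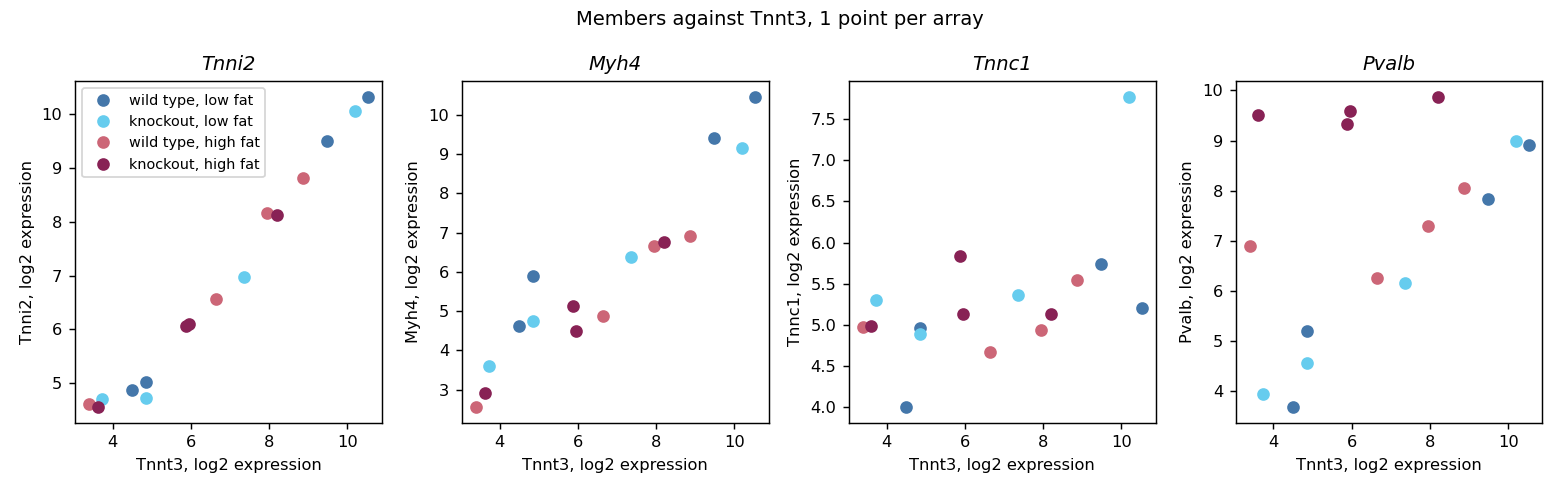
Log2 expression of Tnni2, Myh4, Tnnc1 and Pvalb against that of Tnnt3, with 1 point per array coloured by group. Tnni2 lies close to a line (r = 0.99), Tnnc1 has 1 high point at 7.77, and the 4 knockout high fat arrays of Pvalb lie apart at 9.33 to 9.88.

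The arrays differed in their mix of fast and slow members. Relative to each gene's median over 16 arrays, the median fast member lay 3.51 higher in wild-type low fat replicate 3 and the median slow member 0.51 higher. In wild-type low fat replicate 4 these were 2.69 and 0.82, and in wild-type high fat replicate 3 they were 1.83 and 0.40. In knockout low fat replicate 2 they were 3.16 and 1.97. There 8 of the 9 slow members exceeded their median by more than 1, against 2 in wild-type low fat replicate 3 and 3 in wild-type low fat replicate 4. Of the 39 measured members, 19 had their highest value in knockout low fat replicate 2 and 10 in wild-type low fat replicate 3.

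Set directly against each other, knockout low fat replicate 2 and wild-type low fat replicate 3 had Tnnt3 at 10.19 and 10.52. All 9 slow members were higher in the former, by 0.62 (Myh7) to 2.57 (Tnnc1), with a median of 1.35. Tnni1, Casq2, Myoz2 and Myh7 were under a log2 of 4 in wild-type low fat replicate 3, where values carry little information. The pair also crosses genotypes, and Casq2 was higher in every knockout low fat array than in any wild-type low fat array. Fast members split, with 7 higher and 7 lower and a median difference of -0.13. Within the fast heavy chains, Myh1 was 1.18 and Myh2 0.78 higher and Myh4 1.30 lower in knockout low fat replicate 2. Another pair, wild-type high fat replicate 3 and wild-type low fat replicate 4, had Tnnt3 at 8.86 and 9.48. Fast members were higher in 5 and lower in 9 cases in the former, with a median difference of -0.65. Slow members were higher in 4 and lower in 5, with a median of -0.14, so that the shift of all slow members seen in the first pair was absent here. Among single genes, Myh4 was 2.49 and Atp2a1 2.19 lower in the former, whereas Mylpf was 0.20 and Myh2 0.18 higher and Pgam2 1.55 higher. These pairs were picked after the values were seen and are single arrays, with no test.

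Among the genes tested, the 27 with an r of 0.8 or more with Tnnt3 held 18 members and 7 genes from a list of other skeletal muscle genes. These were Smpx (0.95), Myom2 (0.92), Klhl41 (0.91), Mylk4 (0.89), Apobec2 (0.86), Nrap (0.85) and Cmya5 (0.83). The remaining 2 were Myhas (0.94), an antisense RNA of the myosin heavy chain cluster, and Mss51 (0.80). Csrp3, a muscle LIM protein, came next among the tested genes that are no members, with r = 0.72. The list of other skeletal muscle genes had 59 genes on the array, with a median r of 0.44 and 13 at 0.8 or more.

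Markers of other cell types were set beside Tnnt3 on the same arrays. Of 13 cardiac markers, 7 never reached 4 and the highest r was 0.32. Of 9 genes of the neuromuscular junction, 8 never reached 4. Of 14 myogenic factors and satellite cell genes, 8 never reached 4, and Vgll2 (0.88) and Myf6 (0.84) had r over 0.8 while staying under 4. Smooth muscle markers had r from -0.125 to 0.412, and white adipocyte markers from -0.231 to 0.236. For deviations from the group means, r ran from 0.156 to 0.534 for smooth muscle and from -0.184 to 0.148 for white adipocyte markers.

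The diet and genotype comparisons were then read for the members, with limma tests over all genes. These contrasts played no part in the choice of probe sets. Where groups are said not to overlap, the share of all genes tested without overlap is not given here. Such statements therefore describe a gene and add no support to its call. Tnnt3 did not pass the test in any comparison. High fat minus low fat was -0.62 in wild type (95% confidence interval -4.03 to 2.78, limma adjusted p = 0.788) and -0.63 in knockout (0.802). For knockout against wild type it was -0.80 on the low fat diet (0.765) and -0.80 on the high fat diet (0.786). With intervals of this width, a several-fold difference in Tnnt3 between groups was not detectable with 4 arrays each.

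When wild-type mice on the 2 diets were compared, 3 of the 31 members tested were higher on high fat and 2 lower, against 20.5% of all genes tested called higher and 15.2% called lower. The shares among members were below the background in both directions. Casq1 rose by 1.12 (SE 0.37, limma adjusted p = 0.0259) and Casq2 by 1.02 (SE 0.34, 0.0265), and for both the groups did not overlap. Ryr1 rose by 1.35 (SE 0.45, 0.0296) with overlapping groups. Neb fell by 1.31 (SE 0.38, 0.0138) and Eno3 fell by 0.90 (SE 0.32, 0.0382), both with overlapping groups. The median difference of the members was -0.38 and that of all genes tested 0.04.

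Some of these calls rest on single choices. With the mean of both Ryr1 probe sets the difference was 0.23 (limma adjusted p = 0.707), and the Ryr1 call was also lost on leaving out replicate 1 or 2 of wild type on low fat, or replicate 2, 3 or 4 of wild type on high fat (0.0531 to 0.106). Without wild-type low fat replicate 1 only Neb and Ttn were called (both lower), and Casq1 and Casq2 had limma adjusted p of 0.0851 and 0.0735. Without wild-type high fat replicate 2, 3 or 4 the calls numbered 3 each. The Casq1 call also ended without wild-type high fat replicate 3 (0.0858) and that of Casq2 without replicate 4 (0.069). Eno3 lost its call on leaving out replicate 1, 3 or 4 of wild type on low fat, or replicate 1 or 2 of wild type on high fat (0.0815 to 0.132). It also lost it with the replicate number as a block (0.0533), with no filter (0.0516) and with array weights (0.102). Casq2 had a limma adjusted p of 0.0828 with array weights. With only the groups compared fitted, Casq2, Eno3 and Ryr1 had 0.0675, 0.0784 and 0.0918. Casq2 was under 4 in every wild-type low fat array, and with values under 4 set to 4 its difference was 0.39 (limma adjusted p = 0.271). Smooth muscle markers, of which Casq2 is 1 on the list used, moved the same way. Of the 11, 6 were higher, Casq2 itself among them, and none lower, against 20.5% of all genes tested called higher. Their mean level, with Casq2 included, ran from 6.88 to 7.49 in wild-type low fat arrays and from 7.60 to 10.3 in wild-type high fat arrays. The part of the other markers in the Casq2 result was not tested.

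Leaving out the 5 arrays with Tnnt3 at 8 or more, a choice made after the values were seen and on a member's own value, gave 3 members higher and none lower. The arrays left out were replicates 3 and 4 of wild type and replicate 2 of knockout on low fat, with replicate 3 of wild type and replicate 4 of knockout on high fat. The members called were Ryr1 (2.43, limma adjusted p = 0.000995), Acta1 (1.85, 0.0019) and Pvalb (2.37, 0.0149), and 1 of the 3 was among the calls with all arrays. Neb was then at -0.67 (limma adjusted p = 0.153), and Casq1, Casq2 and Eno3 had adjusted p of 0.0671, 0.108 and 0.0995. This left 2 arrays of wild type on low fat and 3 in each other group. The share of all genes called in this setting is not given here, so that the count of members is not set against it.

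With the high fat diet in knockout fat, 2 of 31 members were higher and 1 lower, against 15.6% and 13.5% of all genes tested. Pvalb rose by 3.66 (SE 1.04, limma adjusted p = 0.015), or 12.6-fold, from 5.92 ± 2.25 to 9.58 ± 0.23 (SD, n = 4). Trdn rose by 1.66 (SE 0.37, limma adjusted p = 0.00299), or 3.15-fold, from 7.92 ± 0.87 to 9.58 ± 0.15. Myl1 fell by 0.85 (SE 0.24, limma adjusted p = 0.0155), from 10.36 ± 0.45 to 9.52 ± 0.29. For all of these the groups did not overlap, which is not set against the share among all genes tested. The size of the Pvalb difference depended on single arrays: it was 4.68 without knockout low fat replicate 2 (limma adjusted p = 0.00175) and 3.00 without knockout low fat replicate 4 (0.0484). With the mean of its 6 probe sets Trdn stood at 1.59 (limma adjusted p = 7.51e-05). Without the 5 arrays, Pvalb stood at 4.58 (limma adjusted p = 0.000218), Trdn at 1.90 (0.00514) and Myl1 at -0.85 (0.0239), and Tnnt1 was also called, at 0.66 (0.0318). The median difference of the members was -0.58 and that of all genes tested -0.02.

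Knockout against wild type on the low fat diet gave 2 of 31 members higher and 0 lower, against 11.7% and 7.24% of all genes tested, and 3 members had an unadjusted p under 0.05. Casq1 rose by 1.13 (SE 0.37, limma adjusted p = 0.0415) and Casq2 by 1.14 (SE 0.34, 0.0275). Only Casq2 had groups that did not overlap. Of the 11 smooth muscle markers, 3 were higher, Casq2 itself among them, and none lower here. The part of the other markers was not tested. This comparison shares its wild-type low fat arrays with the diet comparison in wild type, so that their calls for Casq1 and Casq2 are not independent. No call was left without wild-type low fat replicate 1 or without any 1 of knockout low fat replicates 1, 2 and 3, and with values under 4 set to 4 neither gene passed. Without wild-type low fat replicate 3, Ryr1 was called as well (1.28, 0.0427). Only 1 call was left on leaving out replicate 2 of the wild-type low fat or replicate 4 of the knockout high fat group. With the replicate number as a block Casq1 had a limma adjusted p of 0.0662, with no filter 0.0573 and with only the groups compared 0.0896. Without the 5 arrays the members called were Ryr1 (1.77, limma adjusted p = 0.0124) and Ldb3 (-1.70, 0.0189), and neither had been called with all arrays.

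Knockout against wild type on the high fat diet gave 1 of 31 members higher and 0 lower, against 8.58% and 6.47% of all genes tested, with 2 members at an unadjusted p under 0.05. Trdn rose by 1.80 (SE 0.37, limma adjusted p = 0.00395), or 3.48-fold, from 7.78 ± 0.55 to 9.58 ± 0.15 (SD, n = 4). Its groups did not overlap. Without the 5 arrays the difference was 1.92 (limma adjusted p = 0.0151), and with the mean of its 6 probe sets 1.66 (0.000231). Pvalb was 2.45 apart without overlap of the groups, but did not pass (SE 1.04, limma adjusted p = 0.127). It did pass without the 5 arrays (2.66, 0.015), with array weights (2.21, 0.0443) and with only these groups fitted (0.00222). The comparison shares its knockout high fat arrays with the diet comparison in knockout fat.

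Other genes moved with the same arrays. Of 8 mesothelium markers, 7 were lower in knockout high fat than in knockout low fat arrays, against 13.5% of all genes tested. Set against wild-type high fat arrays, 7 were lower too, against 6.47% of all genes tested. Their mean level was 6.46 to 7.69 in knockout high fat arrays, 8.52 to 8.87 in knockout low fat and 8.22 to 9.58 in wild-type high fat arrays. Their part in the Pvalb and Trdn results was not tested. Cox6a2, from the list of other skeletal muscle genes, was at 5.90 to 6.70 in knockout high fat arrays and at 5.80 or less elsewhere. It was picked after its values were seen. The 5 arrays with high Tnnt3 were not needed for the Trdn calls, which held in all 27 alternatives in both comparisons. The Pvalb call with diet in knockout fat ended only without knockout low fat replicate 3 (limma adjusted p = 0.0528), and that of Myl1 only without knockout high fat replicate 1 (0.0519).

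The change with diet differed between genotypes for 1 member: 0 of 31 were higher and 1 lower in the interaction, against 5.12% and 7.87% of all genes tested, and 4 members had an unadjusted p under 0.05. Casq2 was at -1.51 (SE 0.48, limma adjusted p = 0.0478), with a rise of 1.02 in wild type and a difference of -0.49 in knockout that did not pass (limma adjusted p = 0.303). The call ended in 17 of the other settings, among them the replicate block (0.0723). It held on leaving out replicate 2 of wild type on low fat, replicate 4 of knockout on low fat, or replicate 2 or 4 of wild type on high fat, and ended without each of the other 12 arrays (0.0574 to 0.101). Without the 5 arrays it ended too (0.194), and Acta1 was called in its place (-1.78, 0.0375). Smooth muscle markers had 3 of 11 lower in the interaction, Casq2 itself among them, and the part of the other markers was not tested. Pvalb (2.94, limma adjusted p = 0.198) and Trdn (1.33, 0.1) did not pass, so that a difference between genotypes in their change with diet was not shown. Trdn passed with the mean of its 6 probe sets (1.13, 0.0261) and without knockout low fat replicate 2 (1.63, 0.0445).

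The list of other skeletal muscle genes had 36 genes tested. With diet in wild type, 8 were higher and 2 lower, against 20.5% and 15.2% of all genes tested. With diet in knockout, 5 were higher and 3 lower, against 15.6% and 13.5%. In knockout against wild type, 3 were higher and 1 lower on the low fat diet (11.7% and 7.24% of all genes) and 1 was higher on the high fat diet (8.58%), and 3 were lower in the interaction (7.87%). These shares lie near or below those of all genes and show nothing particular to the list. Hspb7 and Lrrc39, picked for the size of their differences, did not follow Tnnt3. Hspb7, a small heat shock protein of heart and muscle, rose by 2.04 with diet in wild type (SE 0.37, limma adjusted p = 0.000562) and by 2.85 in knockout on the low fat diet (SE 0.37, 9.35e-05), and its r with Tnnt3 was -0.24. Lrrc39, a protein of the sarcomeric M-band, rose by 2.08 and 2.12 in the same comparisons (limma adjusted p = 1.86e-05 and 4.56e-05), and its r was -0.22.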

How the data were processed

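RNA of 16 white fat samples was hybridized to Affymetrix mouse arrays from 5 ug each, per the labels' protocols. Per the submitters' processing notes, the authors used GCRMA 2.20.0 (R 2.11.1) to make the deposited log2 values, 1 per probe set. GCRMA corrects background by probe sequence, so that low values carry little information. The sources used here give no further filter or batch step. Of 45037 probe sets, 34945 carried 1 symbol. Each gene was represented by its brightest such probe set, and 6115 of 18193 genes failed the filter (log2 of 4 in 4 arrays).

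limma 3.58.1 in R 4.3.3 fitted 1 mean per group, with moderated two-sided tests, Benjamini-Hochberg adjustment over 12078 genes and a threshold of 0.05. Correlations with Tnnt3 carry no p. Members, lists and tests were chosen with earlier results of these data known. All members were eligible to be named, as were the 10 other tested genes with the highest r with Tnnt3. Lists of other skeletal muscle genes, myogenic factors, neuromuscular junction, cardiac and smooth muscle, brown fat, white adipocytes, skin and mammary epithelium, mesothelium, and blood and vessel were read beside the members. Same-numbered arrays were not paired.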

Additional observations from a re-analysis of the deposited data

Results flagged for a closer look

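In 4 of 156 groups of 4 arrays, 1 array lay farther from the others than Dixon's critical value allows. This is a smaller share than the 1 in 20 or so that chance gives. Knockout low fat replicate 2 was the array in 3 of these 4 groups. Tnni1 was at 4.25 there, against 2.80 to 2.90 in the other arrays of its group. Tnnc1 was at 7.77, against 4.89 to 5.36. Eno3 was at 8.84, against 7.65 to 7.81. The remaining 1 was Casq2 in wild-type low fat replicate 1, at 2.90 against 3.28 to 3.33, a range below a log2 of 4.

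The change of Casq2 with diet differed between genotypes, at -1.51 for knockout minus wild type (limma adjusted p = 0.0478), and this call did not hold under most alternatives.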

How the results depend on the processing

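Tnnt3 did not pass the test in any comparison under any alternative run. The count of members called was 5 for diet in wild type, and became 2 with a filter at a log2 of 6, 2 with only the groups compared fitted, 3 without the 5 arrays with Tnnt3 at 8 or more (chosen after seeing the data) and 2 to 5 with 1 array left out. For diet in knockout it was 3, became 6 with array weights, and ran from 2 to 3 with 1 array left out. For the low fat knockout comparison it was 2, and became 1 with no filter, 0 with a filter at 6, 0 with values under 4 set to 4, 1 with only the groups compared and 0 to 3 with 1 array left out. For the high fat knockout comparison it was 1, became 2 with array weights, 3 with only the groups compared and 2 without the 5 arrays, and stayed at 1 with 1 array left out. For the interaction it was 1, and became 0 with no filter, with a filter at 6, with values under 4 set to 4 and with arrays centred on their median, 2 with array weights, 2 with the mean of probe sets, and 0 to 2 with 1 array left out. Where a count fell at a filter of 6, only 16 members were tested, and for the other changes the cause was not tested. The share of all genes called in each of these settings is not given here, so that these counts are not set against it. No difference of a called member reversed.

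The 24 same-numbered pairs of arrays, set against each other after subtracting group means, had r between -0.321 and 0.199, with 5 over 0.1. Pairs with different numbers are not given beside them, so that these values cannot settle whether replicate numbers pair the arrays. With the replicate number as a block, the count was 4 for diet in wild type, 3 for diet in knockout, 1 for knockout on the low fat diet, 1 for knockout on the high fat diet and 0 for the interaction. The median r with Tnnt3, 0.855, was 0.888 for deviations from the group means and 0.828 without 2 arrays. Low signal limits 8 members that were measured but not tested, and the number of arrays limits every comparison.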

Other observations

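Some muscle genes outside the list marked single arrays. Trim63, a ubiquitin ligase of muscle that is known to rise in atrophy, was at 6.92 and 6.21 in wild-type low fat replicates 3 and 4 and at 3.60 or less in the other arrays, although Tnnt3 was at 10.19 in knockout low fat replicate 2. Csrp3, a muscle LIM protein, was at 8.56 in knockout low fat replicate 2 and 7.65 in wild-type high fat replicate 3, and at 5.14 or less elsewhere. Both were picked after their values were seen.

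Wild-type high fat replicate 4 stood apart in other muscle and epithelial genes. Tnnt2, the cardiac troponin T, was at 8.91 there and at 4.75 or less in the other arrays, and Actc1, cardiac actin, was at 8.60 against 3.77 or less. Actg2, an actin of smooth muscle, was at 12.71, with knockout low fat replicate 2 next at 11.15. Krt18 and Krt8, keratins of simple epithelia, were at 12.73 and 10.18, against at most 9.02 and 6.95. Tnnt3 in that array was at 7.95.

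Of 10 brown fat markers tested, 6 were lower on the high fat diet in wild type and 7 in knockout, against 15.2% and 13.5% of all genes tested, and none was called higher. Their differences ran from -3.95 to 0.02 in wild type and from -5.50 to 0.54 in knockout. Over the 11 brown fat markers on the array the median r with Tnnt3 was -0.06, and -0.40 for deviations from the group means.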
